A study of Bos taurus with 8 samples.

Results

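The genes described here were shared by nucleated blood cells and ileum, in the sense that these 2 libraries held the highest levels and the other 6 libraries lay well below both. A locus was taken as a member when blood cells and ileum were its 2 highest libraries, both with an FPKM of at least 1, and when the lower of them plus 1 was at least 3 times the third-highest plus 1. FPKM is the number of fragments per kilobase of transcript and by the mapped fragments of the library. Members were thus chosen by their FPKM in all 8 libraries. The rule gave 133 members among 24635 loci with an Ensembl transcript identifier (0.540% of them), or among 24886 such loci when a region of chromosome 23 and a region of chromosome 10 are also counted. These regions (25 to 29 Mb on chromosome 23 and 21.5 to 25.5 Mb on chromosome 10, UMD3.1) were left out by the rule, and 2 and 7 further loci in them met the same rule. Because measured levels chose the members, those levels are a description and carry no test.

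Nucleated blood cells are the leukocytes of the blood, among them lymphocytes, monocytes and granulocytes. The ileum is the last part of the small intestine, where the absorptive epithelium lies above the aggregated lymphoid follicles known as Peyer's patches. In young ruminants the ileal Peyer's patch is a large organ in which B cells multiply and diversify, so that leukocytes are a usual component of this tissue. Genes transcribed mainly in leukocytes can therefore be read in a bulk library of ileum as well as in one of blood cells, and in such libraries fewer cells of a type and less RNA per cell cannot be told apart.

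RNA-Seq libraries of cattle were available for nucleated blood cells and ileum, for the rumen and the abomasum, for mammary/parenchyma (here mammary gland) and uterus intercaruncular (here uterus), and for frontal cortex and whole testes, with 1 library per tissue and no treatment. The tissues of the study came from a Hereford cow and from related animals, and the sample list of the methylation part of the study gives juvenile females for ileum, abomasum, mammary gland and frontal cortex, adult females for blood cells and uterus, an adult male for testes and a fetal male for rumen. Whether the RNA came from these same animals is not stated in the sources used here. With 1 library per tissue, tissue cannot be told apart from animal, age or sex, and no difference between libraries has a replicate check. The scaled depth recovered from the values was 12012000 reads in blood cells, 7507000 in ileum and 6032000 to 15527000 over the 8 libraries. These depths rest on an assumed fragment length and were not checked against the sequence yield that the paper reports. For a transcript of 1000 bases, 8.79 reads gave an FPKM of 1 in blood cells, as did 5.49 reads in ileum and 4.41 in mammary gland, the shallowest library. The floor of 3 reads, the limit that a count of 0 allows, lay between 0.264 and 0.680 FPKM on such a transcript and covers counting error only.

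The table names loci by transcript identifier, and the identifiers of 0 of the 133 members were found in RefSeq genes of ARS-UCD2.0. The tissue labels were thus not checked against marker genes here, and members are given by their position in UMD3.1. The members were set among the other pairs of libraries to see how often 2 tissues stood together above the rest. The same rule was applied to all 28 pairs of libraries. Blood cells and ileum ranked 2 by count, after frontal cortex and whole testes with 236 loci and before abomasum and ileum with 75. Pairs that joined blood cells with another tissue gave 2 loci (uterus) to 25 loci (frontal cortex), and pairs that joined ileum with a tissue other than blood cells or abomasum gave 10 to 37.

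**Figure D1:**
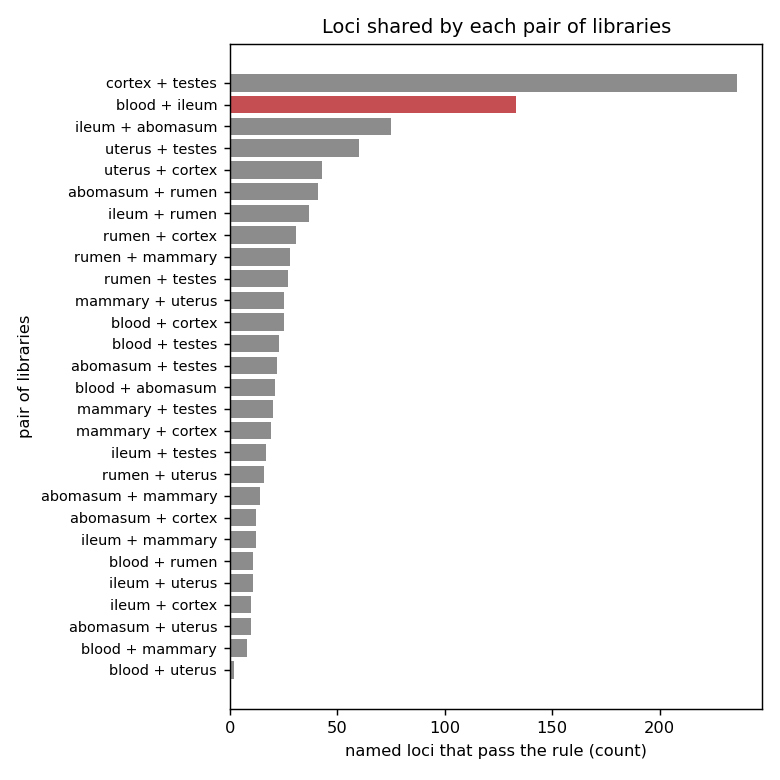
Number of named loci (horizontal axis, count) that met the rule in each of the 28 pairs of libraries (vertical axis), with blood cells and ileum in red. The pair of blood cells and ileum held 133 loci, against 236 for cortex and testes and 75 for ileum and abomasum.

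The members of the other leading pairs stood further above their next library. The median of the lower level plus 1 over the third-highest plus 1 was 3.84 for blood cells and ileum, 6.14 for abomasum and ileum and 4.46 for testes and cortex. In 27 of the 133 members (20.3%) all 6 other libraries were below an FPKM of 1, whereas this was the case for 37.3% of the loci shared by abomasum and ileum and for 43.2% of those shared by testes and cortex. Over the 10555 named loci with an FPKM of at least 1 in both blood cells and ileum, the share below 1 in the 6 other libraries was 0.720%. An FPKM of at least 1 in some other library was thus common among the members, but less so than over the 10555 loci. These shares have no test, since the rule itself draws on the third-highest library.

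Across the 133 members the median FPKM was 58.2 in blood cells (quartiles 24.5 and 117) and 22.8 in ileum (quartiles 11.2 and 42.8). In the other libraries the median was 2.87 in mammary gland, 2.48 in abomasum, 0.710 in uterus, 0.642 in rumen, 0.611 in whole testes and 0.528 in frontal cortex. Mammary gland and abomasum therefore lay above the remaining 4 libraries for these genes, although no median outside blood cells and ileum reached 3. For all 10555 loci with an FPKM of at least 1 in blood cells and ileum, the medians of the 8 libraries ran only from 11.4 to 14.7. Both blood cells and ileum reached an FPKM of at least 10 for 99 members (74.4%, against 51.0% of the 10555 loci), at least 50 for 27 (20.3%, against 11.1%) and at least 100 for 13 (9.77%, against 5.01%). The rule itself allows no member a level below 2 in either library. Because it also asks both levels to exceed the others by a fold, these higher shares follow in part from it. The members took 3.33% of the summed FPKM of named nuclear loci in blood cells, 1.16% in ileum and 0.0210% to 0.189% in the other 6 libraries.

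**Figure D2:**
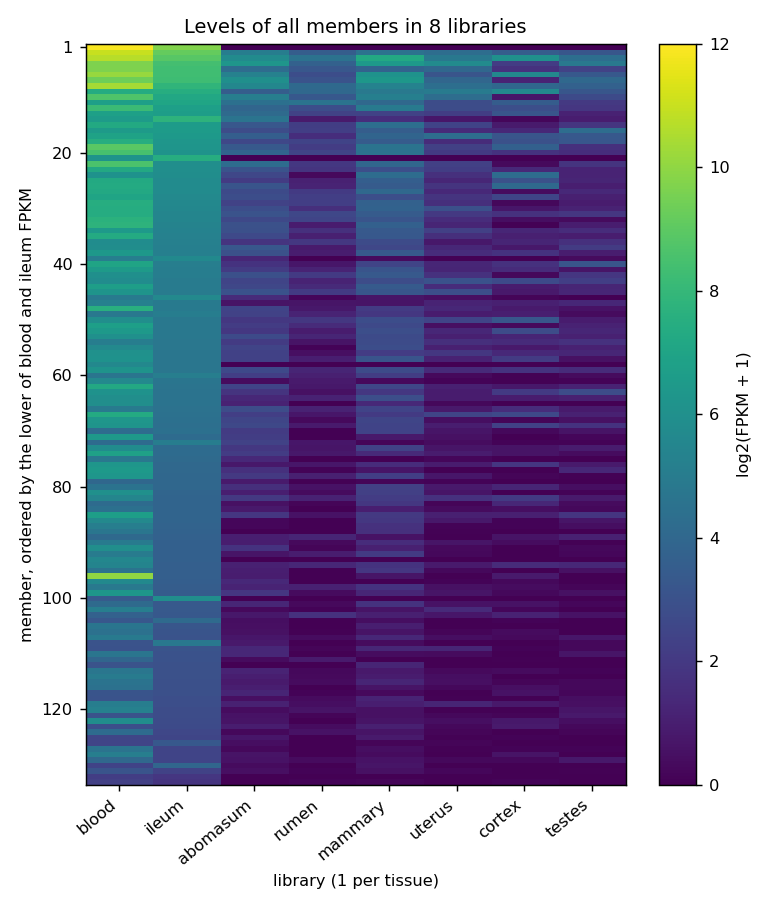
Levels of the 133 members as log2(FPKM + 1) (colour) in 8 libraries (columns, 1 per tissue), with members ordered by the lower of their blood cell and ileum levels (rows). Blood cells and ileum are the brighter columns, with medians of 58.2 and 22.8 FPKM, and mammary gland and abomasum, with medians of 2.87 and 2.48, are brighter than the 4 columns with medians of 0.528 to 0.710.

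Without any fold, blood cells and ileum were the 2 highest libraries at 8.86% of the 10555 loci. Whether blood cells or ileum held the higher level was not fixed by the rule. Blood cells were higher in 116 of the 133 members (87.2%), where blood cells were higher at 60.5% of the 10555 loci. A level in blood cells at least 2 times that in ileum, on the FPKM + 1 scale, was found for 82 members (61.7%), against 14.4% of the loci. The opposite, ileum at least 2 times blood cells, was found for 5 members (3.76%), against 10.6%. On the same scale, the median ratio of blood cells to ileum was 2.54 over the members (quartiles 1.39 and 3.71) and 1.15 over all 10555 loci. The ratio lay within 2 times of the median in either direction for 88 members (66.2%), against 75.4% of the 10555 loci about their own median, so the members were not closer to each other in this ratio. On the log2(FPKM + 1) scale, the Pearson r between blood cells and ileum was 0.796 across the 133 members and 0.794 across the 10555 loci, where all points of a set share the same 2 libraries.

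**Figure D3:**
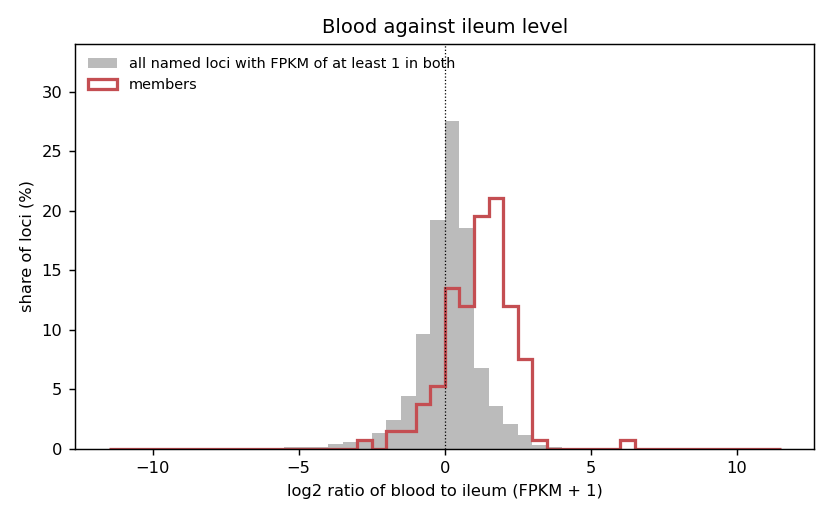
Distribution of the log2 ratio of blood cell to ileum level (FPKM + 1, horizontal axis) as the share of loci (vertical axis, %), for the 133 members (red line) and for all 10555 named loci with an FPKM of at least 1 in both (grey). The members lie to the right, with a median ratio of 2.54 against 1.15, and 1 member lies far to the right at a ratio of 84.3.

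Among the members, the highest levels in both libraries were held by a locus on chromosome 5 (44421168 to 44720998). Its FPKM was 3831 in blood cells and 845 in ileum, and it was listed at 0 in abomasum, rumen, mammary gland, uterus, frontal cortex and whole testes. This stretch of chromosome 5 is known to hold the lysozyme c genes, which encode a bacteriolytic enzyme of phagocytes and, in ruminants, of the stomach. The table gave the same coordinates to 8 named loci, so the position is that of the group. Another locus of the group had an FPKM of 3.47 in blood cells, 32.7 in ileum and 14336 in abomasum, a further one had 4791 in ileum and 4.51 in blood cells, and another had 1880 in blood cells and 66.3 in ileum. When the 8 loci were summed, abomasum was highest with an FPKM of 18287, followed by ileum with 5740 and blood cells with 5721, and the group did not meet the rule. How reads were assigned among the loci of the group is not in the table, and the part of that step in the listed zeros was not tested.

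The other members among the 10 with the highest levels were measured in all 8 libraries. A locus on chromosome 11 (49060222 to 49140113) had an FPKM of 2066 in blood cells, 576 in ileum, 33.1 in abomasum, 10.7 in rumen, 21.8 in mammary gland, 18.6 in uterus, 10.8 in frontal cortex and 8.16 in testes. On chromosome 6, a locus from 99655643 to 99690417 had 825 in blood cells, 324 in ileum, 17.9 in abomasum, 8.66 in rumen, 12.7 in mammary gland, 14.9 in uterus, 2.26 in frontal cortex and 4.20 in testes. In these loci ileum lay over 16 times above the third-highest library, with folds of 16.9 and 17.1 on the FPKM + 1 scale.

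In most of the other highly expressed members mammary gland came next and the margin was narrower. The chromosome 2 locus from 123350016 to 123376541 had an FPKM of 1687 in blood cells, 471 in ileum, 55.0 in abomasum, 21.8 in rumen, 150 in mammary gland, 26.8 in uterus, 63.2 in frontal cortex and 19.3 in testes. For chromosome 13 (74943551 to 74947760) the FPKM was 817 in blood cells, 341 in ileum, 77.5 in abomasum, 12.2 in rumen, 89.0 in mammary gland, 54.3 in uterus, 3.44 in frontal cortex and 28.1 in testes. The folds over mammary gland were 3.12 and 3.80, against a median of 3.84 over the members. The chromosome 25 locus from 26392491 to 26397916 had 1124 in blood cells, 323 in ileum, 38.1 in abomasum, 6.20 in rumen, 68.6 in mammary gland, 7.82 in uterus, 48.0 in frontal cortex and 8.83 in testes. At the chromosome 19 locus (14823366 to 14833298) these values were 655 in blood cells, 310 in ileum, 61.3 in abomasum, 7.52 in rumen, 79.8 in mammary gland, 14.5 in uterus, 1.28 in frontal cortex and 15.5 in testes. Blood cells exceeded ileum by 2.11 to 3.58 times in these 4 members, on the FPKM + 1 scale.

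The last 3 of the 10 differed in which library followed. A locus on chromosome 28 (25631916 to 25647735) had an FPKM of 1335 in blood cells, 233 in ileum, 46.4 in abomasum, 15.9 in rumen, 38.4 in mammary gland, 19.1 in uterus, 15.0 in frontal cortex and 12.04 in testes. The chromosome 12 locus (16253784 to 16360374) had 409 in blood cells, 147 in ileum, 33.9 in abomasum, 8.83 in rumen, 35.3 in mammary gland, 18.3 in uterus, 0.654 in frontal cortex and 5.55 in testes. On chromosome 11, the locus from 107191849 to 107193047 had 166 in blood cells, 178 in ileum, 10.7 in abomasum, 15.8 in rumen, 27.5 in mammary gland, 31.2 in uterus, 48.5 in frontal cortex and 8.22 in testes. It was the only 1 of the 10 in which ileum exceeded blood cells, and frontal cortex was its third-highest library.

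**Figure D4:**
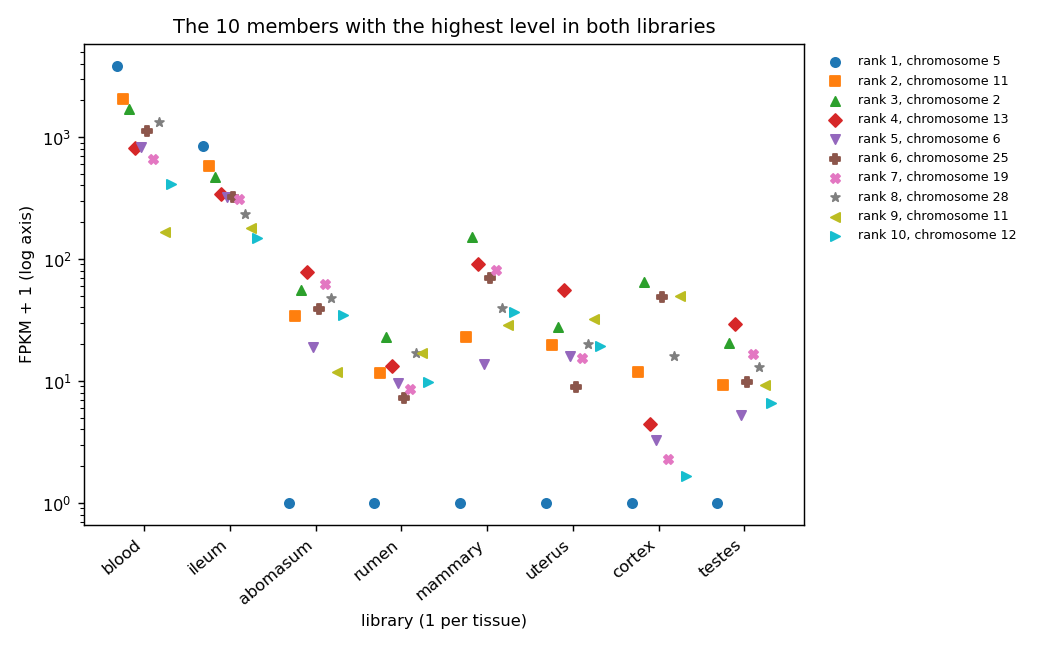
FPKM + 1 (vertical log axis) of the 10 members with the highest level in both libraries, in each of the 8 libraries (horizontal axis, 1 per tissue), with each marker standing for 1 member named by its rank and chromosome. The ileum points lie between 147 and 845 FPKM, above every point of the 6 other libraries at the same member, and the chromosome 5 member is listed at 0 in those 6 libraries and so plotted at 1.

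A listed level of 0 in every other library was rare, and 6 members (4.51%) were listed at 0 in all 6 other libraries, against 0.0758% of the 10555 loci. This excess follows from the rule, which takes any such locus once both levels reach 2. Beside the chromosome 5 locus (ENSBTAT00000060361), these 6 members comprised loci on chromosomes 4, 6 and 21 and 2 on chromosome 10. The chromosome 6 locus (8023550 to 8024665, ENSBTAT00000060522) had an FPKM of 70.6 in blood cells and 175 in ileum. The same identifier also stood at another locus with the same coordinates, which had 51.7 in blood cells, 45.1 in ileum and 28.8 to 321 in the other libraries, with the highest value in testes. Summed, these 2 loci gave 122 in blood cells, 220 in ileum and 321 in testes, and no longer met the rule.

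A locus on chromosome 10 (26814898 to 26827908, ENSBTAT00000060581) had an FPKM of 47.5 in blood cells and 25.4 in ileum, and its identifier also stood at a second locus of the same coordinates. The sum over the 3 loci there was 54.4 in blood cells, 29.4 in ileum and 1.20 to 6.90 in the other libraries, which still met the rule. The remaining 3 had coordinates of their own and were short. On chromosome 4, a locus of 582 bases (106576881 to 106577463) had 45.7 in blood cells and 11.7 in ileum, and on chromosome 10 a locus of 482 bases (60202861 to 60203343) had 3.48 and 2.72. The chromosome 21 locus (45387108 to 45387272) spanned 164 bases, the shortest of the members, and had 9.74 in blood cells and 60.3 in ileum. Even if the whole span were transcript, its values corresponded to at most 19.2 reads in blood cells and 74.2 in ileum. Those of the 482-base locus corresponded to at most 20.1 and 9.84 reads. The span of 164 bases is also shorter than the assumed fragment length, so the reads there can lie far below the bounds. An exact 0 in such a table can be a failed estimate, and no fold is given for these members.

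Loci of shared coordinates were counted over all members. Coordinates in the table can be those of a group of overlapping or neighbouring transcripts, and how reads were assigned within a group is not in the table. Another named locus stood at the same coordinates for 34 members (25.6%), against 29.1% of the 10555 loci, so the members were not set apart in this respect. The members at such positions included 11 that shared an identifier with the other locus. After the loci of each group were summed, 16 of the 34 still lay in a group that met the rule and 18 did not. The other 99 members had coordinates of their own, with a median FPKM of 59.2 in blood cells and 22.2 in ileum. Among these 99, blood cells were higher in 84 (84.8%) and the third-highest library was mammary gland in 47 and abomasum in 28.

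Ileum exceeded blood cells in 17 members, and the ratio of ileum to blood cells on the FPKM + 1 scale was above 2 in 5 of them. The ratio was 5.70 at the 164-base locus on chromosome 21 described above, where it can rest on few reads. It was 3.33 at a locus on chromosome 18 (62838436 to 62849280) and 2.94 at a locus on chromosome 21 (35211413 to 35213420), followed by 2.45 at the chromosome 6 locus described above. The chromosome 18 locus had an FPKM of 7.40 in blood cells, 26.97 in ileum, 0.789 in abomasum, 0.276 in mammary gland and 0.187 in testes, and was listed at 0 in rumen, uterus and frontal cortex. For the chromosome 21 locus the FPKM was 4.25 in blood cells, 14.4 in ileum, 0.273 in abomasum and 0.586 in mammary gland, and it was listed at 0 in rumen, uterus, frontal cortex and testes. At both loci the levels outside blood cells and ileum were below 1 FPKM.

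Some members with higher ileum levels were measured well above the floor in both libraries. A locus on chromosome 3 (29643175 to 29648016) had an FPKM of 95.9 in blood cells, 216 in ileum, 23.5 in abomasum, 0.843 in rumen, 1.94 in mammary gland, 0.666 in uterus, 0.169 in frontal cortex and 0.957 in testes. On chromosome 7, the locus ENSBTAT00000003821 (12206054 to 12271139) had 34.4 in blood cells, 51.5 in ileum, 1.42 in abomasum, 0.276 in mammary gland, 0.0536 in uterus and 0.282 in testes, and was listed at 0 in rumen and frontal cortex. Its fold over abomasum, the third-highest library, was 14.6 on the FPKM + 1 scale. A locus on chromosome 15 (29313735 to 29344970) had nearly equal levels, 92.2 in blood cells and 93.6 in ileum, with 6.003 in abomasum, 3.67 in rumen, 10.7 in mammary gland, 1.72 in uterus, 1.503 in frontal cortex and 18.5 in testes.

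At the other end, blood cells exceeded ileum most at a locus on chromosome 6 (90673204 to 90674173), with an FPKM of 1028 in blood cells and 11.2 in ileum, a ratio of 84.3 on the FPKM + 1 scale. Its level was 0.933 in abomasum, 0.612 in mammary gland and 0.820 in frontal cortex, and it was listed at 0 in rumen, uterus and testes. The next ratios on this scale were far smaller, at 8.79 for a chromosome 18 locus (57979174 to 58014937) and 7.46 for a chromosome 2 locus (126273037 to 126293726). The chromosome 18 locus had 57.6 in blood cells, 5.67 in ileum and at most 0.689 in the other libraries. It shared its coordinates with other named loci, and their sum did not meet the rule. The chromosome 2 locus had 162 in blood cells, 20.9 in ileum and 0.671 to 5.25 in the other libraries.

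Many members lay close to the limit of the rule. The fold of the lower level over the third-highest library was below 4 in 77 members (57.9%), from 4 to 5 in 27, from 5 to 10 in 18 and at least 10 in 11. The members just inside were loci on chromosome 18 (46215574 to 46239445), chromosome 15 (42757675 to 42796464) and chromosome 25 (26120768 to 26125637), at folds of 3.0002, 3.01 and 3.02. Just outside lay loci on chromosome 2 (36557430 to 36648838), chromosome 12 (30136997 to 30159808) and chromosome 23 (7053737 to 7063709), each at a fold of 2.99. With a fold of 2 the rule gave 312 loci and with a fold of 5 it gave 29.

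The library that followed blood cells and ileum was examined next. Mammary gland was third-highest in 68 members (51.1%), where it was the highest of the 6 other libraries at 10.6% of the 10555 loci. Abomasum was third-highest in 35 members (26.3%, against 16.2%), frontal cortex in 8 (6.02%, against 16.2%), whole testes in 7 (5.26%, against 30.0%), rumen in 5 (3.76%, against 17.9%) and uterus in 4 (3.01%, against 9.03%). The order of mammary gland and abomasum turned among the 29 members with a fold of at least 5, where abomasum was third-highest in 14 (48.3%) and mammary gland in 7 (24.1%). In 5 of the 29 all 6 other libraries were listed at 0. The fold is taken over the third-highest library, so this subset was chosen on the same values and the turn is a description. Where mammary gland was third-highest, its median FPKM was 4.76, and where abomasum was, the median was 3.41. Of the 75 loci shared by abomasum and ileum, uterus was third-highest in 17, testes in 16, mammary gland in 14, rumen in 11 and blood cells in 8. The 236 loci shared by testes and cortex had uterus as third-highest in 75, ileum in 45, mammary gland in 32, blood cells in 27, rumen in 25 and abomasum in 21. The mammary library, which was the shallowest, limited the set most. Without it 253 loci met the rule, and abomasum was third-highest in 61.3% of them. Without abomasum 180 loci met the rule.

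The members were spread over 27 chromosomes, and 0 lay on unplaced sequence. Chromosome 18 held 12 members, chromosome 3 held 11, chromosome 7 held 10, and chromosomes 5, 25 and X held 9 each. Relative to the loci with an FPKM of at least 1 in both blood cells and ileum, these numbers corresponded to 1.92% on chromosome 18, 1.88% on chromosome 3, 1.58% on chromosome 7, 1.54% on chromosome 5, 2.14% on chromosome 25 and 2.55% on chromosome X, against 1.26% over all chromosomes. Chromosomes 21, 4 and 1, with 7 members each, had shares of 2.51%, 2.21% and 1.77%. Lower shares were found on chromosome 19 (6 members, 0.878%), chromosome 11 (4 members, 0.739%) and chromosome 10 (2 members, 0.446%), and 1 member each lay on chromosomes 9, 12, 14 and 26 (0.433% to 0.521%). The share of members on the X chromosome was 6.77%, against 3.34% of the 10555 loci. The median span of a member from start to end was 21549 bases, and that of all 10555 loci was 28903.

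Neighbouring members were grouped into runs, allowing gaps of up to 250000 bases. There were 19 runs with at least 2 members, and the longest held 4. In 1 of these runs, on chromosome 1, both members stood at the same coordinates. The runs are given for position only, since they also depend on gene density and no matching value over other loci was computed. One run of 4 lay on chromosome 21 (35206044 to 35267979), where all 4 named loci were members. Their FPKM in blood cells and ileum was 60.3 and 22.6, 4.25 and 14.4, 25.5 and 12.8, and 26.9 and 16.7, from the lowest to the highest position. Their levels in the 6 other libraries did not exceed 2.18. In this run the order of blood cells and ileum differed between adjacent loci, with ileum higher at the second one only.

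The run of 4 on chromosome 3 (8794460 to 9296830) lay among 11 named loci, 8 of which had an FPKM of at least 1 in blood cells and ileum. Its member with the highest level (9022903 to 9053379) had 387 in blood cells, 59.9 in ileum and 0.248 to 17.8 in the other libraries. The first 2 members of this run shared coordinates, with 90.1 and 48.8 in blood cells and 39.3 and 26.2 in ileum. On chromosome 7 (18331009 to 18937117), 3 of the 4 members stood at 1 set of coordinates (18522294 to 18937117), and 2 of these shared an identifier. Their FPKM was 66.2, 86.1 and 20.6 in blood cells and 25.6, 17.4 and 13.5 in ileum, and they are not independent loci.

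The loci beside the members, which the rule had left out, were then compared with the rest. For each member the nearest locus on each side was taken that was not a member, did not overlap it and had an FPKM of at least 1 in blood cells and ileum. This gave 230 loci at a median distance of 41952 bases. Blood cells and ileum were the 2 highest libraries, with no fold required, in 41 of them (17.8%), against 7.70% of the 10422 loci that were not members. The median level of these neighbours was 16.3 in blood cells and 14.5 in ileum, against 14.6 and 13.1 over all loci that were not members. Neighbouring loci share chromosome regions and are not independent replicates, and no test was run.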

How the data were processed

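Total RNA of 8 cattle tissues was sequenced by the authors as single-end reads, with 1 library per tissue. Per the labels, reads were aligned to UMD3.1 with TopHat2 2.0.13, and the study's methods name Cufflinks with default parameters. The deposited values are FPKM as the authors' software scaled them, for 36801 loci in 28 pairs of libraries, and 0 FPKM values differed between pairs. The authors' fold changes, test statistics, p-values and q-values in the table were not used. Groups follow the tissue labels. Coordinates are printed as the table gives them, and a span is end minus start.

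The member rule used a pseudocount of 1, and since it requires a lower level of at least 2 by construction, the FPKM minimum of 1 excluded no locus. Members and lists were chosen with earlier results of these data known. Loci are named in the text by fixed orders: the 10 highest lower levels, the 6 highest folds, the 3 highest ratios in each direction between blood cells and ileum, the 3 nearest to the limit on each side, and the runs with most members. The chromosome 3 and 15 loci with higher or equal ileum levels, the members listed at 0 elsewhere and the loci of shared coordinates were named after their values were seen. At most 2 identifiers are printed in each direction.

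Depth was recovered from 36 to 519 unnamed loci of 88 to 130 bases per library, taking a fragment length of 200 bases (SD 80) with a lower limit of 87, and 97.7% to 100% of these loci then gave whole reads within 0.03. The limit was chosen after the data were examined. Transcript lengths are not in the table, so reads at a member are upper bounds from its span. With 1 library per tissue no test was run, and shares of members stand beside the same share over all loci. Scripts used Python 3.11.15, pandas 2.3.3, scipy 1.17.1 and matplotlib 3.10.9 and were tested on simulated data.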

Additional observations from a re-analysis of the deposited data

Results flagged for a closer look

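Loci without an identifier were outside the comparisons. Among 1700 such loci with an FPKM of at least 1 in blood cells and ileum, 42 (2.47%) met the same rule, and blood cells were higher in 36 of them (85.7%), against 66.2% of the 1700. They are given because the signal lies in data that the comparisons left out. Each would hold at least 3 reads in both libraries if its whole span were transcript. That is an upper bound, so it cannot show that a locus did hold 3 reads. The median span of the 42 loci was 637 bases, 18 lay within 5000 bases of a named locus and 8 within 5000 bases of a member. The highest lower level was found at 125 bases on chromosome 11 (6609241 to 6609366). Its FPKM was 698 in blood cells, 596 in ileum, 108 in rumen, 92.7 in mammary gland, 166 in uterus and 181 in frontal cortex. It was listed at 0 in abomasum and testes. This span is of the length class from which depth was recovered, and is shorter than the assumed fragment length. At such a span few reads can give a high FPKM, so these levels do not show abundant RNA. A locus of 15334 bases on chromosome 15 (3458108 to 3473442) had 34.1 in blood cells, 42.7 in ileum and 0.0665 to 1.20 in the other libraries.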

How the results depend on the processing

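A count was taken to hold within 1.5 times of 133, and a share or median within its 95% binomial interval over members, which takes loci as independent and serves only to set the size of a move, not as a test. No paired analysis was possible because every group holds a single library. The alternatives restricted to spans of at least 300 bases and summing loci of the same coordinates were chosen after seeing the data. The count held under 14 of 18 alternatives, but several of these could change it in 1 direction only or not at all. Taking away the FPKM minimum had to return 133, and keeping the windows or leaving out a library could only add loci. The tally is therefore no measure of robustness. The count rose to 312 with a fold of 2 and fell to 29 with a fold of 5, both by construction, and a pseudocount of 0.1 gave 203. Leaving out each other library in turn gave 140 to 253 loci, the highest without mammary gland. Of the 133 members, 113 remained among 118 when libraries were rescaled to the same summed FPKM, 129 among 134 with median-ratio scaling, and summing loci of the same coordinates gave 111. The share with blood cells above ileum was 75.9% at a fold of 5 and held under the other 17 alternatives, from 85.6% to 90.9% with libraries left out. The median fold was 2.86, 7.14 and 4.23 with a fold of 2, a fold of 5 and a pseudocount of 0.1, and 3.84 to 4.52 with libraries left out. Abomasum was third-highest in 48.3% at a fold of 5 and in 27.1% to 61.3% with libraries left out, the highest without mammary gland. The mammary library was the shallowest, and a floor of 0.680 FPKM on 1000 bases limits what its low values show. Unless a reason is given, the cause was not tested.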
